A study of Homo sapiens with 12 samples.

Results

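The genes described here are the HSP70 and HSP110 chaperones HSPA1A, HSPA1B, HSPA6, HSPA7, HSPA8, HSPA2, HSPA9, HSPA4, HSPA4L and HSPH1. They were taken as every probe of the array table whose platform gene symbol is 1 of these 10 names, which gave 14 of 47319 probes and 10 of 20045 genes. HSPA6, HSPA8, HSPA4 and HSPA2 each had another, dimmer probe, and a gene's value was that of its brightest probe, averaged over all arrays. The symbols, not the measured values, chose the probes, but the 10 names were chosen with earlier results of these data known.

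KMS-11, an established human multiple myeloma cell line, was kept for 24 h in 1% FBS and then given the solvent DMSO or 6 µM NSC12 for 6 or 12 h. NSC12 is a small molecule that binds fibroblast growth factors and keeps them from their receptors. Each agent was measured at each time, which made 4 groups with 3 Illumina arrays of total RNA in each. All groups shared the starvation, the cell line was the only one used, and no array of cells before treatment was analysed here. The labels do not say whether replicates were separate cultures, so p-values measure the spread between these arrays, which may be technical.

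HSP70 proteins bind stretches of unfolded protein and release them in a cycle of ATP binding and hydrolysis. J-domain proteins bring them substrates and speed hydrolysis, and nucleotide exchange factors, among them the larger HSP110 proteins, reset the cycle. Cells make some family members all the time and others mainly under stress, when the transcription factor HSF1 binds heat shock elements, which are repeats of GAA in alternating orientation, in their promoters. Myeloma cells secrete or store much immunoglobulin and are known to lean on chaperones.

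Deposited probe intensities were linear, and the mean per array ranged from 347 to 634. They were quantile normalized and taken to log2, and the normalized scale ran from 6.45 to 14.37. A background level of 6.97 was taken from 371 olfactory receptor genes, which blood cell lines are not known to use, as the value that 95% of their means did not exceed. Of all genes 63.0% exceeded it in at least 1 group, and so did all 10 chaperone genes. All 10 myeloma and plasma cell markers lay above it. Of the markers of other cells, CD8A (1 of 4 for T and NK cells), CD14 and LYZ (2 of 4, myeloid), PECAM1 (1 of 4, stromal and endothelial) and EPCAM and KRT18 (2 of 4, epithelial) did too. The summed normalized intensity of the epithelial list was 1979 to 2126 under DMSO and 1849 to 1962 under NSC12 at 6 h, with no overlap, and 1930 to 2072 against 1850 to 2043 at 12 h. That of the plasma cell list was 44300 to 44866 under DMSO and 41393 to 45043 under NSC12 at 6 h, and 47119 to 48879 against 40918 to 42522 at 12 h, where the groups did not overlap. The part of either list in the results was not tested. The group means of array brightness were 521 ± 153 (DMSO, 6 h), 428 ± 61.6 (NSC12, 6 h), 538 ± 77.3 (DMSO, 12 h) and 588 ± 36.0 (NSC12, 12 h; SD, n = 3 each), and their part in the results was tested only through the fit with brightness as a covariate.

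Promoter windows of 300 bases (250 before and 50 after the annotated start) were read from RefSeq for GRCh38.p14, where 9 of the 10 genes had an entry, HSPA4L with 3 entries. HSPA7 is named only. The 4 windows printed here belong to the stress-inducible HSP70 genes with an entry and to HSPA8, the chaperone that cells make constantly. Each runs 5′ to 3′ along the gene's strand, with the letters that matched a heat shock element in capitals: chr1:161524290-161524589 on the plus strand (HSPA6), chr11:123062087-123062386 on the minus strand (HSPA8), chr6:31815293-31815592 (HSPA1A) and chr6:31827488-31827787 (HSPA1B), both on the plus strand.
HSPA6: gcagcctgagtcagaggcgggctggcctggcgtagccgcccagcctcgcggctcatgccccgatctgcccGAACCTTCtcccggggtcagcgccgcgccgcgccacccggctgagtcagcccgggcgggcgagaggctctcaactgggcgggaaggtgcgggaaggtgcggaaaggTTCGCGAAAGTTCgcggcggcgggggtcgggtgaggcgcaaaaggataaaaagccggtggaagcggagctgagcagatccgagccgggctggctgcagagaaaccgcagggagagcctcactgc
HSPA8: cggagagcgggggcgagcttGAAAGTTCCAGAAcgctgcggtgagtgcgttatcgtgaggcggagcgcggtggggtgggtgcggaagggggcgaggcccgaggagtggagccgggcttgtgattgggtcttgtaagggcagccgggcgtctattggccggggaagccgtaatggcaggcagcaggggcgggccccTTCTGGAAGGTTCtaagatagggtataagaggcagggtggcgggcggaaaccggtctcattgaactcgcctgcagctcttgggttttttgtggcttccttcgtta
HSPA1A: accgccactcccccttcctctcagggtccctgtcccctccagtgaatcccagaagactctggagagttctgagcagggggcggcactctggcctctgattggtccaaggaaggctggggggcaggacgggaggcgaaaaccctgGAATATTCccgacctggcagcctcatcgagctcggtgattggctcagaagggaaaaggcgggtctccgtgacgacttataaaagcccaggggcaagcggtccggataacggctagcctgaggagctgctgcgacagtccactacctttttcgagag
HSPA1B: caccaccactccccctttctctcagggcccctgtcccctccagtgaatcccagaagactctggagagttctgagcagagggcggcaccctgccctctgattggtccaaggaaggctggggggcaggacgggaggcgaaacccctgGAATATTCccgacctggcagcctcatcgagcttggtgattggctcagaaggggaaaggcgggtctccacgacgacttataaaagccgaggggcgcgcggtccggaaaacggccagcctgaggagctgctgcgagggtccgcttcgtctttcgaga

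The 3-unit heat shock element was searched on both strands as GAANNTTC run on by NNGAA, and its 2-unit parts as GAANNTTC and TTCNNGAA, which lie inside every 3-unit match. The 3-unit letters stood in 0.49% of 35116 promoter windows of this length, GAANNTTC in 6.77%, TTCNNGAA in 7.74% and any of them in 13.5%. HSPA6 held the 3-unit letters once, 74 to 62 bases before its start, and GAANNTTC again 180 to 173 bases before it. HSPA8 held them at 2 places, 230 to 218 and 55 to 43 bases before its start. HSPA1A and HSPA1B held GAANNTTC only, from base 106 and from base 105 before their starts, and their windows were identical at 277 of 299 aligned bases (92.6%). A window of HSPA4L held TTCNNGAA 170 bases before its start, and HSPA9 held it across its start. The HSPA4, HSPH1 and HSPA2 windows held none of these letters. CCAAT stood in 34.6% of all windows, at 2 places each in HSPA1A, HSPA1B and HSPA8, and at 1 place each in HSPA2 and a window of HSPA4L. TATAAA stood in 11.5% of all windows and, 30 and 29 bases before the start, in HSPA1A and HSPA1B. The same HSPA4L window held TATAAA 89 bases before its start. A match of letters is a description of the window and not a measured binding site.

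**Figure D1:**
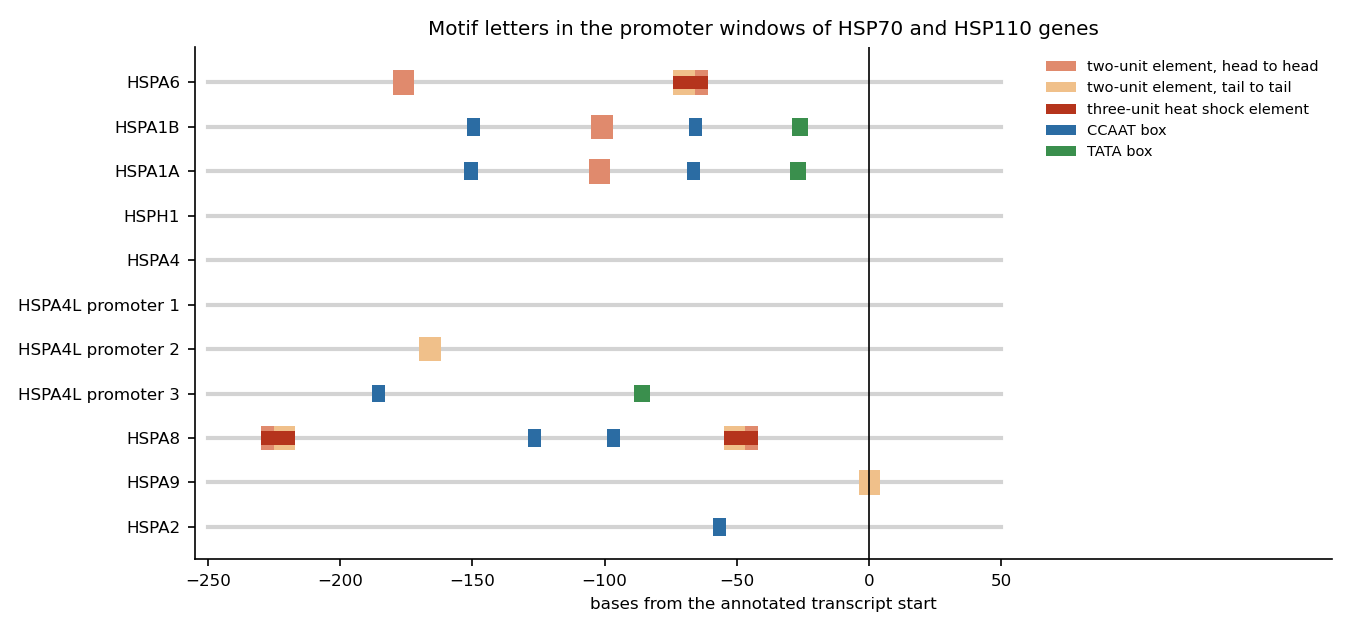
Motif letters in the 11 promoter windows of the 9 chaperone genes with a RefSeq entry, plotted by distance in bases from the annotated transcript start (vertical line); grey bars span the window and coloured blocks mark matches on either strand. The 3-unit heat shock element letters appear in HSPA6 and HSPA8 only, and HSPA4, HSPH1 and HSPA2 have no heat shock element letters.

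After 6 h of NSC12 the stress-inducible HSP70 genes HSPA6, HSPA7, HSPA1B and HSPA1A and the HSP110 gene HSPH1 rose, and after 12 h HSPA8, HSPA4 and HSPA4L had risen as well. HSPA2 and HSPA9 passed the test at neither time. In all, 5 of 10 rose and 0 fell at 6 h, against 5.56% of all genes called higher and 7.51% called lower (13.1% in either direction). At 12 h 8 of 10 rose and 0 fell, against 13.6% of all genes called higher and 15.2% called lower (28.9% in either direction). These counts use brightest probes, and the other HSPA4 probe fell at 12 h (-0.38, adjusted p = 0.00124 over all probes). The probes of HSPA6 and HSPA7, and those of HSPA1A and HSPA1B, may share signal. The counts are a description, because the 10 genes were chosen with earlier results of these data known. A call means an adjusted p of at most 0.05 in limma over all 20045 genes. Of the genes above background in at least 1 group, 8.69% were called higher at 6 h and 21.4% at 12 h. The median log2 change of the 10 genes was 0.44 at 6 h and 1.05 at 12 h, and the median over all genes was 0.00 at both times. Of all calls, 42.5% were higher at 6 h and 47.3% at 12 h. Under median centring of the arrays in place of quantile normalization these shares were 18.8% and 36.3%, and the calls of the 10 genes were 5 higher at 6 h and 7 higher at 12 h, without HSPA4L. In total RNA from a culture, fewer cells with a transcript and less of it per cell cannot be told apart.

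**Figure D2:**
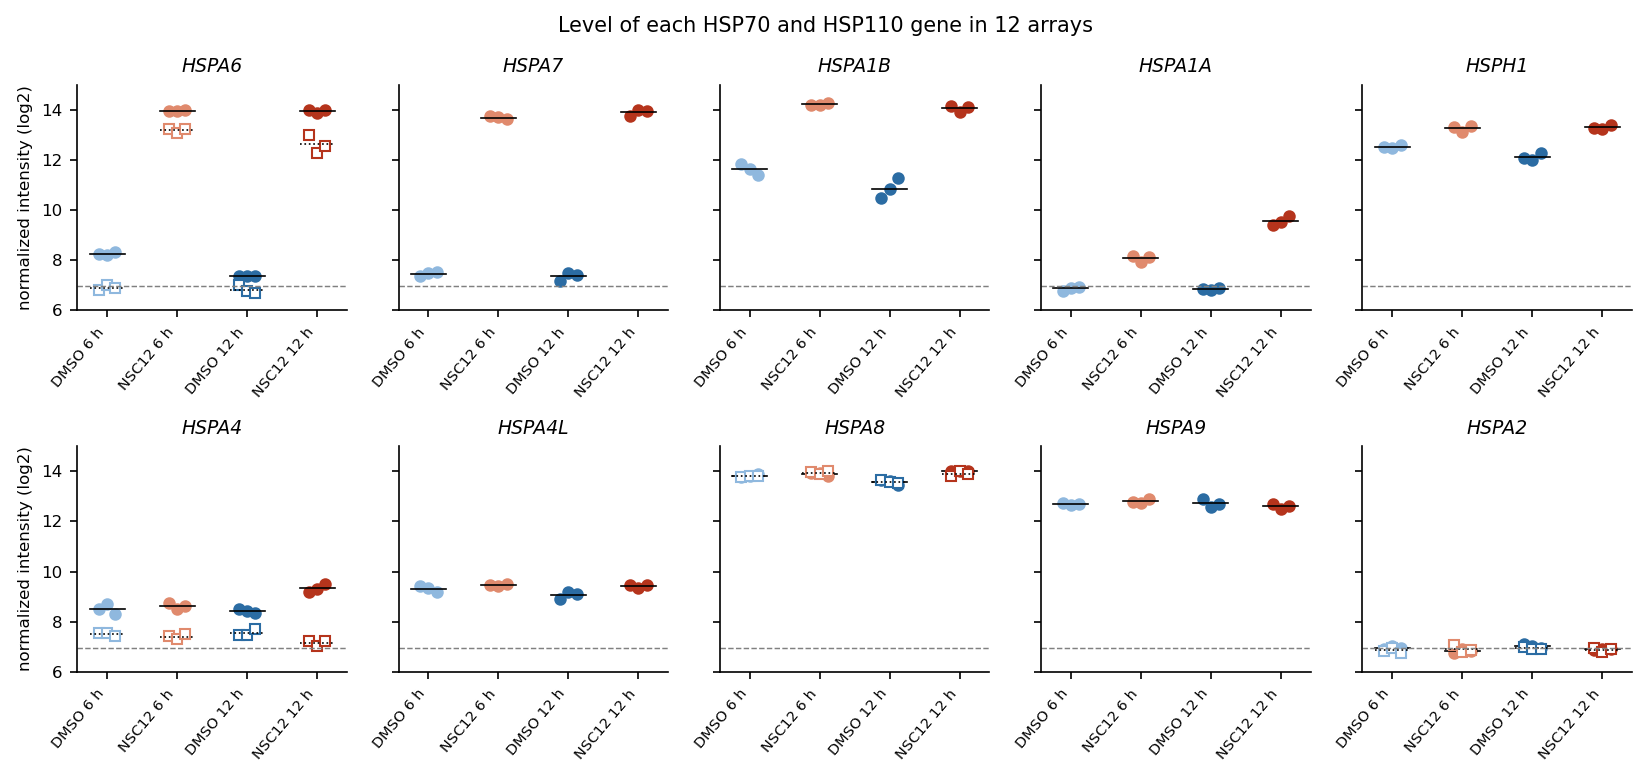
Normalized log2 intensity of each chaperone gene in the 12 arrays, by group; filled circles are the brightest probe and solid bars its group mean, open squares the dimmer probe and dotted bars its mean, and the dashed line is the background level of 6.97. The group means of the brightest HSPA6 and HSPA7 probes run from 7.36 to 8.27 under DMSO and from 13.69 to 13.96 under NSC12. HSPA9 and HSPA2 stay within a narrow band in all 4 groups.

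HSPA6 encodes HSP70B′, a form that human cells make almost only under stress. Its brighter probe read 8.23, 8.23 and 8.34 (log2) in the DMSO arrays at 6 h and 13.93, 13.94 and 13.998 in the NSC12 arrays. At 12 h it read 7.36, 7.37 and 7.37 under DMSO and 13.98, 13.87 and 13.99 under NSC12. Every NSC12 array stood over every DMSO array, and the NSC12 arrays of both times overlapped. On the deposited scale the DMSO arrays at 12 h averaged 173 ± 24.3 and the NSC12 arrays 18216 ± 1441 (SD, n = 3 each). The log2 change was 5.69 ± 0.07 (SE) at 6 h, or 51.7-fold (adjusted p = 1.07e-23), and 6.59 ± 0.07 at 12 h, or 96.0-fold (adjusted p = 5.07e-25).

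The dimmer HSPA6 probe gave the same direction. It read 6.82, 7.002 and 6.89 under DMSO and 13.23, 13.09 and 13.23 under NSC12 at 6 h, and 7.003, 6.76 and 6.70 against 13.01, 12.26 and 12.56 at 12 h. The DMSO means lay below background, so NSC12 was at least 73.6-fold higher at 6 h and at least 49.6-fold higher at 12 h (adjusted p = 1.04e-20 and 6.83e-20 over all 47319 probes, of which 3.04% and 8.96% were called higher). The probes differed in what happened between the times. Under NSC12 the dimmer probe fell by 0.57 on the log2 scale (adjusted p = 0.00264, with 7.74% of all probes called lower), where the brighter one changed by -0.01 (adjusted p = 0.949). The brighter probe lay between 71.1% and 78.8% of the highest intensity of its array in the NSC12 groups and the dimmer one between 24.2% and 46.2%.

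HSPA7 is a near-identical copy of HSPA6, often listed as a pseudogene, and its probe may share signal with HSPA6 transcripts, so its call is uncertain. It read 7.37, 7.47 and 7.52 under DMSO and 13.75, 13.69 and 13.62 under NSC12 at 6 h. At 12 h the values were 7.19, 7.51 and 7.43 against 13.76, 13.97 and 13.93. The groups did not overlap at either time. The log2 change was 6.23 ± 0.08 at 6 h (75.2-fold, adjusted p = 9.55e-23) and 6.51 ± 0.08 at 12 h (adjusted p = 3.84e-23), and the difference between these changes did not pass (0.28, 95% interval 0.03 to 0.53, adjusted p = 0.169).

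HSPA1A and HSPA1B encode the main inducible HSP70, in nearly the same protein sequence, from neighbouring genes whose promoter windows are printed above. Their probes may share signal. The HSPA1B probe read 11.84, 11.63 and 11.38 under DMSO and 14.19, 14.16 and 14.27 under NSC12 at 6 h, and 10.48, 10.83 and 11.27 against 14.13, 13.90 and 14.10 at 12 h. It was thus well above background without NSC12, and the DMSO arrays of 12 h were the most spread of its 4 groups (10.86 ± 0.39, SD, n = 3). NSC12 raised it by 2.59 ± 0.13 at 6 h (6.03-fold, adjusted p = 2.24e-12) and by 3.19 ± 0.13 at 12 h (9.11-fold, adjusted p = 3.74e-14). In the NSC12 arrays it reached 73.4% to 95.1% of the highest intensity of the array, and the normalized scale ended at 14.37. Whether this limited its change was not tested.

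The HSPA1A probe read 6.79, 6.91 and 6.95 under DMSO and 8.15, 7.94 and 8.13 under NSC12 at 6 h, then 6.87, 6.80 and 6.91 against 9.42, 9.52 and 9.76 at 12 h. Each DMSO array lay below background and the 12 h NSC12 arrays stood over the 6 h ones with no overlap. NSC12 was at least 2.15-fold higher at 6 h (adjusted p = 3.21e-09) and at least 6.06-fold higher at 12 h (adjusted p = 9.95e-16). The NSC12 groups differed by 1.49 ± 0.09 between the times (adjusted p = 7.25e-10). The HSPA1B probe, close to the top of its scale in both, differed there by -0.16 (95% interval -0.44 to 0.11, adjusted p = 0.453), and with array brightness as a covariate by -0.41, which passed (adjusted p = 0.0378). The HSPA1A probe never passed 3.93% of the highest intensity of its array.

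HSPA8 encodes HSC70, the HSP70 that cells make at all times for folding new proteins, and its probes were bright in every group. The brightest read 13.76, 13.79 and 13.88 under DMSO and 13.94, 13.91 and 13.80 under NSC12 at 6 h, where the groups overlapped. At 12 h it read 13.65, 13.61 and 13.46 against 14.01, 14.02 and 14.02, with no overlap. The change was 0.07 at 6 h (95% interval -0.05 to 0.20, adjusted p = 0.523) and 0.45 ± 0.06 at 12 h (1.36-fold, adjusted p = 3.59e-06). The other probe gave 0.15 (adjusted p = 0.138) and 0.31 (adjusted p = 0.000172). Both stood at 48.2% to 80.0% of the array's highest intensity.

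HSPA2, known for its role in sperm development, was at the edge of detection. Its brightest probe ranged from 6.77 to 7.12 over the 12 arrays. The change was -0.13 at 6 h (95% interval -0.26 to -0.0019, adjusted p = 0.203) and -0.14 at 12 h (95% interval -0.27 to -0.01, adjusted p = 0.119). The NSC12 arrays lay below the DMSO arrays at each time without overlap, with NSC12 means below background. The other probe was below background in all 4 groups.

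The HSP110 gene HSPH1 encodes a nucleotide exchange factor for HSP70 that also holds unfolded proteins in solution. It read 12.52, 12.46 and 12.59 under DMSO and 13.32, 13.10 and 13.33 under NSC12 at 6 h, and 12.09, 12.01 and 12.26 against 13.27, 13.23 and 13.40 at 12 h. The NSC12 arrays stood over the DMSO arrays at both times. The change was 0.72 ± 0.08 at 6 h (1.65-fold, adjusted p = 4.76e-07) and 1.19 ± 0.08 at 12 h (2.27-fold, adjusted p = 7.44e-11).

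HSPA4, another HSP110 exchange factor, rose at 12 h by its brightest probe. That probe read 8.52, 8.70 and 8.32 under DMSO and 8.73, 8.51 and 8.62 under NSC12 at 6 h, where the change was 0.11 (95% interval -0.10 to 0.31, adjusted p = 0.600). At 12 h it read 8.51, 8.43 and 8.33 against 9.19, 9.30 and 9.49, a change of 0.91 ± 0.10 (1.87-fold, adjusted p = 2.55e-07). The other HSPA4 probe, also above background, went the opposite way. It read 7.48, 7.49 and 7.69 under DMSO and 7.23, 7.04 and 7.25 under NSC12 at 12 h, a fall by 0.38 on the log2 scale (adjusted p = 0.00124 over all probes, of which 9.45% were called lower). The HSPA4 result therefore holds for 1 of its 2 probes, and which transcripts each detects was not analysed here.

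HSPA4L, the closest relative of HSPA4, ranged from 9.20 to 9.41 under DMSO and from 9.42 to 9.51 under NSC12 at 6 h, a change of 0.15 (95% interval -0.03 to 0.32, adjusted p = 0.306). At 12 h it ranged from 8.92 to 9.18 under DMSO and from 9.33 to 9.46 under NSC12. That rise of 0.35 ± 0.08 (1.28-fold, adjusted p = 0.00231) did not pass under median centring, where it was 0.23 (adjusted p = 0.397).

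HSPA9 encodes mortalin, the HSP70 of the mitochondrial matrix, which pulls proteins through the inner membrane. It ranged from 12.63 to 12.71 under DMSO and from 12.74 to 12.91 under NSC12 at 6 h, and from 12.58 to 12.89 against 12.48 to 12.68 at 12 h. The change was 0.13 at 6 h (95% interval -0.03 to 0.28, adjusted p = 0.351) and -0.13 at 12 h (95% interval -0.29 to 0.03, adjusted p = 0.249). Groups did not overlap for 8 of the 10 genes at 6 h (27.9% of all genes) and for 9 of the 10 at 12 h (38.2% of all genes), HSPA9 being the exception at 12 h.

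**Figure D3:**
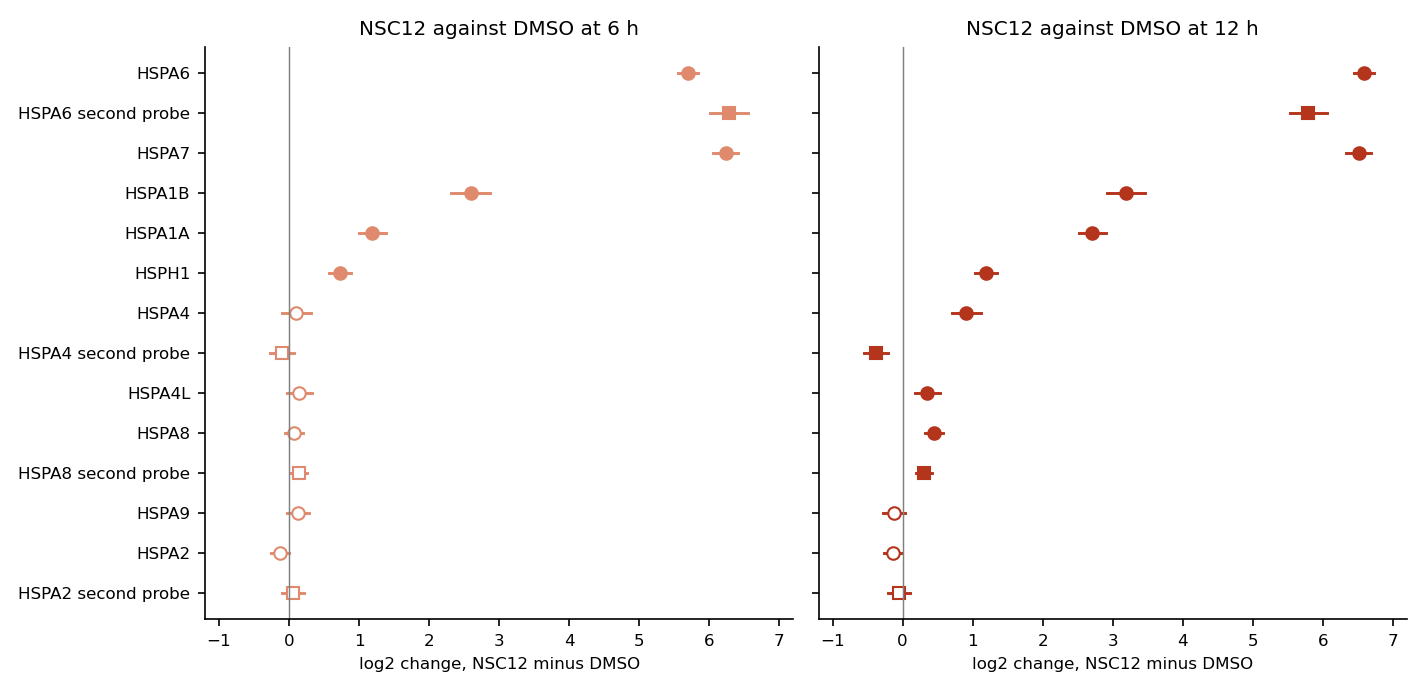
Log2 change (NSC12 minus DMSO) with its 95% interval for each chaperone gene at 6 h (left) and 12 h (right); circles are brightest probes in the fit over genes, squares dimmer probes in the fit over all probes, and filled symbols passed an adjusted p of 0.05. The brightest probes of 5 genes passed at 6 h and of 8 at 12 h, all higher, and the dimmer HSPA4 probe passed in the other direction at 12 h.

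The effect of NSC12 was larger at 12 h than at 6 h for 6 of the 10 genes and smaller for 0, by the interaction term, which called 4.65% of all genes higher and 5.77% lower (10.4% in either direction). Among those calls 44.7% were higher, and 76.1% under median centring. For HSPA1A (adjusted p = 4.52e-07) both DMSO means lay below background, so its difference has no exact size here, and the change within the NSC12 arrays given above stands for it. The other differences were 0.89 ± 0.10 for HSPA6 (adjusted p = 5.86e-06), 0.80 ± 0.14 for HSPA4 (adjusted p = 0.000783), 0.46 ± 0.11 for HSPH1 (adjusted p = 0.00664), 0.37 ± 0.08 for HSPA8 (adjusted p = 0.00542) and 0.60 ± 0.19 for HSPA1B (adjusted p = 0.0435). HSPA1A and HSPA4 moved in the NSC12 arrays, as given above. For HSPA6, HSPA1B and HSPH1 the DMSO arrays differed between the times and the NSC12 arrays did not pass the test, and for HSPA8 neither did.

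Several of these differences depended on a probe, a library or the processing. With the mean of a gene's probes, that of HSPA6 was 0.20 (adjusted p = 0.406) and that of HSPA4 0.26 (adjusted p = 0.153), and neither dimmer probe passed alone (-0.49, adjusted p = 0.138, and -0.28, adjusted p = 0.212). The other HSPA8 probe did not pass alone either (0.16, adjusted p = 0.309). The HSPA1B difference was lost under median centring (0.67, adjusted p = 0.132), cyclic loess (0.46, adjusted p = 0.0912), the mean of a gene's probes (0.60, adjusted p = 0.0897), the replicate block (0.60, adjusted p = 0.0572) and brightness as a covariate (0.39, adjusted p = 0.167). It was also lost without any 1 of 9 arrays, namely DMSO 6 h replicates 1 and 2, DMSO 12 h replicates 1 and 2, NSC12 6 h replicates 1, 2 and 3 and NSC12 12 h replicates 1 and 3 (0.41 to 0.63, adjusted p from 0.0698 to 0.126). The HSPA8 difference did not pass under cyclic loess (0.28, adjusted p = 0.0539) or median centring (0.52, adjusted p = 0.192), and the HSPH1 difference did not under median centring (0.71, adjusted p = 0.0778).

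In the DMSO arrays, 3 of the 10 genes were lower at 12 h than at 6 h and 0 were higher, where 0.15% of all genes were called lower and 0.249% higher (0.399% in either direction). Among those calls 62.5% were higher, and 92.9% under median centring. HSPA6 fell by 0.90 ± 0.07 on the log2 scale (adjusted p = 1.02e-07), HSPA1B by 0.76 ± 0.13 (adjusted p = 0.00916) and HSPH1 by 0.41 ± 0.08 (adjusted p = 0.0164). The other 7 genes changed by values from -0.25 (HSPA4L, adjusted p = 0.255) to 0.07 (HSPA2, adjusted p = 0.782), with HSPA8 at -0.24 (adjusted p = 0.103). The dimmer HSPA6 probe lay below background at both times, with a change of -0.08 (adjusted p = 0.944). The HSPA1B call was lost when replicate 1 of DMSO at 6 h was left out (-0.65, adjusted p = 0.0539), or replicate 2 of DMSO at 12 h (-0.75, adjusted p = 0.0636). The HSPH1 call was lost when replicate 1 (-0.41, adjusted p = 0.0534) or replicate 3 (-0.37, adjusted p = 0.105) of DMSO at 6 h was left out, or replicate 2 of DMSO at 12 h (-0.35, adjusted p = 0.168). Both were lost under median centring and in the fit of the DMSO groups alone (adjusted p = 0.145 for HSPA1B and 0.0931 for HSPH1).

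In the NSC12 arrays, HSPA1A and HSPA4 were higher at 12 h than at 6 h and HSPA9 was lower, against 11% of all genes called higher and 11.4% lower (22.4% in either direction; 49.1% of the calls were higher, and 72.4% under median centring). HSPA4 rose by 0.71 ± 0.10 (adjusted p = 1.67e-05), and its other probe changed by -0.24 (adjusted p = 0.0542). HSPA9 fell by 0.21 ± 0.08 on the log2 scale (adjusted p = 0.0468). That call was lost without any 1 of 7 arrays, namely DMSO 6 h replicates 1, 2 and 3, NSC12 6 h replicates 1 and 3 and NSC12 12 h replicates 2 and 3 (adjusted p from 0.0524 to 0.228), and the change was 0.17 under median centring (adjusted p = 0.597). It was also lost under cyclic loess (-0.11, adjusted p = 0.354), with the mean of a gene's probes (-0.21, adjusted p = 0.0584) and with brightness as a covariate (-0.19, adjusted p = 0.202). HSPA7 (0.20, adjusted p = 0.103), HSPA8 (0.14, adjusted p = 0.112), HSPH1 (0.05, adjusted p = 0.719) and HSPA4L (-0.05, adjusted p = 0.784) did not pass. HSPA8 passed with brightness as a covariate (0.21, adjusted p = 0.0337), HSPA6 with the mean of its probes (-0.29, adjusted p = 0.0262), and HSPA7 in the fit of the NSC12 groups alone (0.20, adjusted p = 0.0215) and without replicate 1 of NSC12 at 12 h (0.27, adjusted p = 0.0408). By brightest probes, all the genes but HSPA1A, HSPA2 and HSPA9 had their group means in the same order. It was NSC12 at either time, then DMSO at 6 h, then DMSO at 12 h. The share of all genes in that order was not counted. Within that order the NSC12 groups did not differ by the test except for HSPA4. The DMSO groups did not differ except for HSPA6, HSPA1B and HSPH1, and the 6 h groups did not for HSPA8, HSPA4 and HSPA4L. HSPA1A was left out because both its DMSO means lay below background, so their order is not known. The other HSPA4 probe stood in the reverse order, from 7.55 (DMSO, 12 h) through 7.51 (DMSO, 6 h) and 7.41 (NSC12, 6 h) to 7.17 (NSC12, 12 h).

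**Figure D4:**
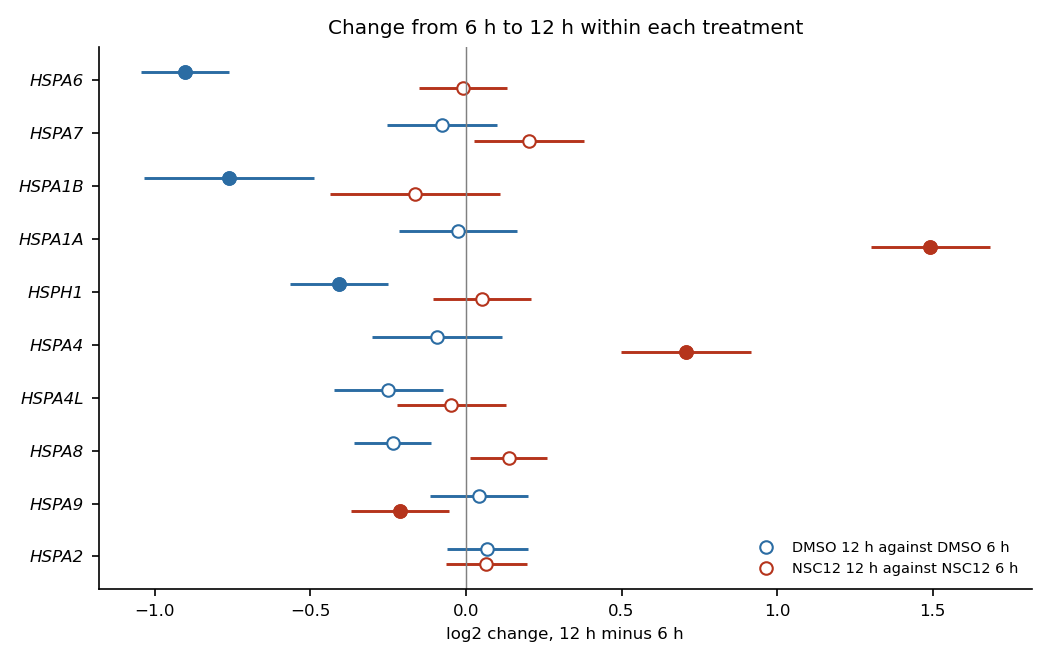
Log2 change from 6 h to 12 h with its 95% interval for each chaperone gene, within the DMSO arrays (blue) and within the NSC12 arrays (red); filled circles passed an adjusted p of 0.05. Under DMSO the points of HSPA6, HSPA1B and HSPH1 lie below 0 (-0.90, -0.76 and -0.41), and under NSC12 those of HSPA1A and HSPA4 lie above it (1.49 and 0.71).

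The remaining HSP70 and HSP110 family members are 6 genes with other sites of action. At 6 h 1 rose and 1 fell, where 5.56% of all genes were called higher and 7.51% lower. At 12 h 1 rose and 3 fell, where 13.6% of all genes were called higher and 15.2% lower. The median log2 change was -0.09 and -0.20, and 0.00 over all genes at both times, and no difference from the 10 genes was tested. HSPA13, a small HSP70 relative bound to microsomes, rose by 0.44 (adjusted p = 0.00322) and 0.39 (adjusted p = 0.00316), though its other probe above background changed by -0.02 and 0.28 and did not pass. HSPA14, which works at the ribosome, fell by 0.53 (adjusted p = 2.17e-05) and 0.44 (adjusted p = 5.45e-05). HYOU1, the HSP110 relative of the endoplasmic reticulum, fell by 0.64 at 12 h (adjusted p = 1.98e-05), and its other probe fell by 0.97 (adjusted p = 2.90e-06). HSPA12A, a distant relative whose NSC12 mean was below background, was at least 1.03-fold lower at 12 h (adjusted p = 0.0160). HSPA5 (BiP), named here for its part in antibody folding in the endoplasmic reticulum, changed by 0.07 (adjusted p = 0.674) and -0.19 (adjusted p = 0.0742).

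Of 22 cytosolic partners of HSP70 (J-domain proteins, exchange factors and adaptors), 4 rose and 1 fell at 6 h (5.56% and 7.51% of all genes), and 8 rose and 6 fell at 12 h (13.6% and 15.2% of all genes). Their median log2 change was -0.01 and 0.18. DNAJB1, the J-domain protein paired with inducible HSP70, rose from 10.23 ± 0.13 to 14.04 ± 0.04 at 6 h, a change of 3.81 (adjusted p = 8.16e-21), and by 4.38 at 12 h (adjusted p = 1.20e-21). BAG3, an exchange factor that links HSP70 to autophagy, rose by 1.83 (adjusted p = 3.01e-13) and 2.77 (adjusted p = 9.38e-17). DNAJB4 rose by 0.47 (adjusted p = 0.00100) and 1.31 (adjusted p = 3.62e-10), and DNAJA1, an abundant J-domain protein, by 0.41 (adjusted p = 8.41e-05) and 0.85 (adjusted p = 9.43e-10). BAG5, an exchange factor of the same family as BAG3, fell by 0.35 at 6 h (adjusted p = 0.00419) and by 0.65 at 12 h (adjusted p = 1.59e-06). It was chosen for mention as the only fall at 6 h by brightest probes. A dimmer DNAJB6 probe, named after its values were seen, fell by 0.59 (adjusted p = 0.000113 over all probes) and 0.89 (adjusted p = 1.06e-07). The brightest DNAJB6 probe changed by -0.08 (adjusted p = 0.723) and -0.32 (adjusted p = 0.0302). In DMSO, DNAJB1 (-0.65, adjusted p = 2.30e-05), BAG3 (-0.55, adjusted p = 0.00180) and DNAJA1 (-0.31, adjusted p = 0.0365) were lower at 12 h than at 6 h, as HSPA6, HSPA1B and HSPH1 were. Under median centring only 1 of all genes was called lower between the DMSO groups. That gene was HSPA6, so the DNAJB1, BAG3 and DNAJA1 calls were lost.

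Of 11 partners of HSPA9 in mitochondria, 2 rose and 0 fell at 6 h, beside 5.56% and 7.51% over all genes. At 12 h 5 rose and 2 fell, beside 13.6% and 15.2% over all genes, and the median log2 change was 0.04 at 6 h and 0.18 at 12 h. At 6 h the import motor subunit PAM16 rose by 0.37 (adjusted p = 0.0178) and the exchange factor GRPEL1 by 0.32 (adjusted p = 0.00717). At 12 h PAM16 rose by 0.80 (adjusted p = 2.35e-06), HSCB, a J-domain protein of iron-sulfur cluster assembly, by 0.78 (adjusted p = 9.30e-08), DNLZ, which keeps HSPA9 soluble, by 0.71 (adjusted p = 6.35e-07), and DNAJC15 by 0.54 (adjusted p = 1.26e-05). The falls were of the J-domain protein DNAJA3 (-0.37, adjusted p = 9.61e-05) and the co-chaperonin HSPE1 (-0.39, adjusted p = 0.00861), which were named for being the only ones. The other HSPE1 probe rose by 0.70 (adjusted p = 5.25e-05), so the direction of HSPE1 is not settled. The probes of the chaperonin HSPD1, named after their values were seen, also disagreed, with 0.24 (adjusted p = 0.00122) for the brightest and -0.33 (adjusted p = 0.00986) for the next.

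Of 17 heat shock factors and other known heat shock targets 14 had a probe. Of these 5 rose and 0 fell at 6 h, against shares of 5.56% and 7.51% over all genes, and 6 rose and 1 fell at 12 h, against 13.6% and 15.2%. The list's median log2 change was 0.11 and 0.14. SERPINH1, the collagen chaperone HSP47, rose from 8.39 ± 0.07 to 11.24 ± 0.12 at 6 h (2.85, adjusted p = 1.25e-15) and by 3.54 at 12 h (adjusted p = 2.04e-17). HSP90AA1, the inducible HSP90, rose by 0.75 (adjusted p = 1.11e-09) and 1.05 (adjusted p = 1.88e-12), but another bright probe of it changed by -0.07 (adjusted p = 0.610) and -0.06 (adjusted p = 0.556). CRYAB, a small heat shock protein that was below background under DMSO, was at least 1.08-fold higher at 6 h (adjusted p = 0.0117) and at least 1.65-fold higher at 12 h (adjusted p = 2.89e-09). CHORDC1, which binds HSP90, rose by 0.35 at 6 h (adjusted p = 0.00448). CACYBP, a ubiquitin ligase adaptor, fell by 0.72 at 12 h (adjusted p = 8.02e-05). HSF1, named for its role and not for its values, changed by 0.11 (adjusted p = 0.426) and 0.13 (adjusted p = 0.212). The probes of UBB, named after their values were seen, disagreed. The brightest changed by 0.12 (adjusted p = 0.333) and -0.14 (adjusted p = 0.165). Another bright UBB probe rose by 0.72 (adjusted p = 2.43e-05 over all probes) and 0.42 (adjusted p = 0.00262).

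**Figure D5:**
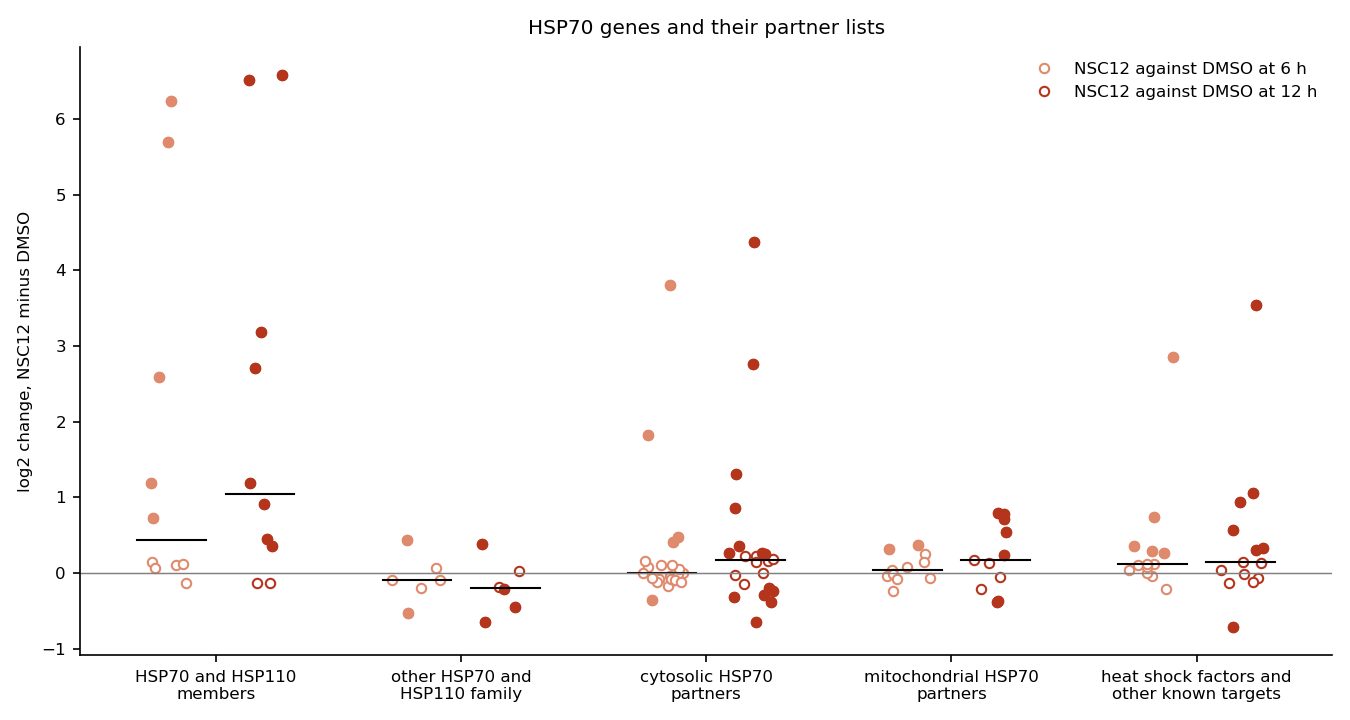
Log2 change (NSC12 minus DMSO) of each gene at 6 h (light) and 12 h (dark) in the 10 chaperone genes and 4 partner lists; each point is 1 gene by its brightest probe, filled points passed an adjusted p of 0.05 and bars are list medians. All partner genes except DNAJB1, BAG3 and SERPINH1, which lie higher, fall between -0.72 and 1.31.

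The genes whose level over the 12 arrays was most like that of a chaperone gene were found among 12468 genes above background, by Pearson's r, as a description in which the 12 points are 4 groups of 3 arrays. For HSPA6 they were DNAJB1 (r = 0.9995), DEDD2 (0.995), RGS1 (0.995), IER5 (0.994) and WDR33 (0.993). For HSPA1B they were DNAJB1 (0.986), HSP90AA1 (0.986), TRAF6 (0.986), ARFGEF2 (0.983) and DEDD2 (0.982). For HSPH1 they were CCDC138 (0.986), HSP90AA1 (0.981), BAG3 (0.979), ARFGEF2 (0.972) and DNAJA1 (0.970). Those most like HSPA8 were other genes, namely SCFD1 (0.964), UCHL3 (0.958), FSAF1 (0.944), SNRPB2 (0.932) and ANXA1 (0.927).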

How the data were processed

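Values were probe intensities on a linear scale, as the authors deposited them with no detection p-value beside them. Scanner software and any normalization were not given in the sources used. Because array brightness differed, the values were handled as raw, and an additive background that remained in them understates changes of dim genes. A floor of 16 was set (0 values lay below it), and all 47319 probes were quantile normalized and taken to log2. Symbols came from the platform annotation (30111 probes with 1 symbol, 8 with several, 17200 with none listed), 30072 of them matched by Entrez identifier to RefSeq names of GRCh38.p14. Each of 20045 genes was fitted by its brightest probe with limma 3.58.1 in R 4.3.3, as 4 group means with an intensity trend, with Benjamini-Hochberg adjustment at 0.05; a like fit over all probes served single probes. The fits were tested on simulated data. An "at least" fold was given where 1 of the 2 group means lay below background. In it, each array of that group that lay below background enters as that level. The number of arrays limits the precision.

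Groups came from the labels. The 10 genes and the partner lists were chosen with earlier results of these data known. All 10 genes and their probes were named, and of each list up to 4 called genes with the largest change at each time, plus those said to be chosen for another reason. Alternatives were median centring, cyclic loess, normexp with an offset of 50, the mean of a gene's probes, genes above background only, only the groups compared, a replicate block, array brightness as a covariate and leaving out each array.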

Additional observations from a re-analysis of the deposited data

Results flagged for a closer look

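The effect of NSC12 differed between 6 and 12 h, by the interaction term in limma over all genes, for 6 of the 10 chaperone genes. That term called 4.65% of all genes higher and 5.77% lower (10.4% in either direction). The 12 h minus 6 h differences on the log2 scale were 0.893 for HSPA6, 0.8 for HSPA4, 0.596 for HSPA1B, 0.461 for HSPH1 and 0.373 for HSPA8. The fitted value for HSPA1A was 1.52, but it is no exact size, because both DMSO means of that probe lay below background. The HSPA1B difference was lost under 5 of the alternatives that kept all arrays. Those of HSPA6 and HSPA4 were lost with the mean of a gene's probes. The HSPA8 difference was lost under cyclic loess and median centring, and the HSPH1 difference under median centring. The other HSPA8 probe gave 0.16 (adjusted p = 0.309) and did not pass. Groups of 3 arrays were not searched for single arrays that stand apart.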

How the results depend on the processing

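Of 990 log2 changes of the 10 genes under an alternative, 924 kept their direction and their side of the threshold, among them 198 of 200 for NSC12 against DMSO at 6 h and 198 of 200 at 12 h. Of the others 39 lost and 5 gained a call and 22 changed sign, 1 of them a called change. That was HSPA9 between the NSC12 groups, -0.21 by quantile normalization and 0.17 under median centring. Median centring turned these uncalled changes: HSPA4 (-0.058) and HSPA4L (-0.039) at 6 h, HSPA9 at 12 h (0.11), its difference between the times (0.033), and HSPA1B (0.034), HSPA6 (0.22) and HSPA4L (0.063) between the NSC12 groups. It moved the genes called from 2619 to 1470 at 6 h, from 2089 to 364 for the difference, from 4490 to 2510 between the NSC12 groups and from 80 to 14 between the DMSO groups, and the chaperone genes called from 6 to 3 for the difference and from 3 to 1 between the DMSO groups. The cause was not tested. Fitting the DMSO groups alone called 15 genes, 1 of them among the 10, and this fit had fewer arrays. With the mean of a gene's probes, 3 of the 10 were called for the difference, 1 in place of 2 other family members at 6 h and between the NSC12 groups, and 0 in place of 1 heat shock target between the DMSO groups. With brightness as a covariate, between the NSC12 groups HSPA6 changed by 0.015 (uncalled), HSPA1B (-0.41, adjusted p = 0.0378) and HSPA8 (0.21, adjusted p = 0.0337) gained a call and HSPA9 lost it (-0.19, adjusted p = 0.202), and the HSPA1B difference between the times was lost (0.39, adjusted p = 0.167).

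Leaving out 1 array gave 1982 to 2902 genes called at 6 h, 5109 to 5874 at 12 h, 1545 to 2156 for the difference, 3562 to 4725 between the NSC12 groups and 21 to 123 between the DMSO groups. The chaperone genes called were 5 and 8 at 6 and 12 h each time, 5 to 6 for the difference, 2 to 4 between the NSC12 groups and 1 to 3 between the DMSO groups. Uncalled changes that turned ranged from -0.044 to 0.033 (HSPA2, difference), -0.033 to 0.031 (HSPA6, NSC12 groups), -0.022 to 0.095 (HSPH1, NSC12 groups), -0.072 to 0.0085 (HSPA1A, DMSO groups), -0.14 to 0.014 (HSPA7, DMSO groups) and -0.043 to 0.11 (HSPA9, DMSO groups). The labels do not say whether arrays with the same replicate number belong together. Over 18 same-number pairs the correlation of deviations from the group means ran from -0.38 to 0.13. With 3 arrays a group these values cannot settle it. With the replicate block the genes called went from 2619 to 2504 at 6 h and from 80 to 54 between the DMSO groups, and of the calls on the 10 genes only the HSPA1B difference was lost (0.60, adjusted p = 0.0572). Probes near background bound small changes of dim genes such as HSPA2.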
